A study of Mus musculus with 6 samples.

Results

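Type I interferon-stimulated genes were examined in whole livers of mice with and without AEG-1 in hepatocytes. The set held 33 genes named by symbol: antiviral effectors, the OAS (oligoadenylate synthetase) family, the ISG15 system, nucleic acid sensors, and STAT and IRF transcription factors. All 33 were found among the 46983 gene rows of the count table, and all 33 passed the low-count filter, which kept 16441 genes. The choice was by name, with earlier results of these data known.

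AEG-1 (astrocyte elevated gene 1), the product of Mtdh, is a membrane protein that also binds RNA and is studied in tumours and in inflamed liver. The knockout group, AEG-1DHEP, carried a conditional deletion of AEG-1 in hepatocytes, so the other cells of the liver were not targeted. The control group, AEG-1fl/fl, carried the conditional allele without the deletion and is called wild type in the titles. Both groups were 12-week-old mice on the C57BL/6 background that were fed chow and received no treatment, with 3 mice per group per the labels. The Cre line that drove the deletion is not given in the sources used here.

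Type I interferons bind the receptor pair IFNAR1 and IFNAR2, and the receptor's kinases JAK1 and TYK2 then activate STAT proteins. STAT2 and IRF9 are parts of a complex that binds the interferon-stimulated response element, a DNA motif near the start of many target genes. The target genes encode proteins that sense foreign RNA, block viral replication or feed back on the pathway, and in the liver both hepatocytes and resident immune cells can express them.

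The response element was looked for near the starts of the members. Windows of 300 bases, 250 before and 50 after the gene start, were taken from RefSeq (GRCm38.p6) and were found for 24 of the 33 members, 28 windows in all. The motif searched was GAAANNGAAA, a pair of GAAA repeats 2 bases apart, on both strands and with overlapping matches counted. It was present in 12 of the 28 windows (42.9%), each of a different member, and in 3.44% of all 32851 windows. For Bst2 and Stat2, which had a match, and for 1 Ifit2 window without a match, bases after the RefSeq start were not found in the gene's GENCODE transcripts. The start used there may differ from that of the counted gene. The longer form GAAANNGAAACT, whose matches are all matches of the shorter one too, was present in windows of 6 members (21.4% of member windows) and in 0.271% of all windows. A match describes letters only and is not evidence of binding.

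The 250 bases before the start are shown for 6 members. Rsad2 (chr12:26456453-26456702, minus strand) and its neighbour Cmpk2 (chr12:26468965-26469214, plus strand) had the widest spread between knockout livers. Isg15 (chr4:156200819-156201068, minus strand), Ifit3 (chr19:34583279-34583528, plus strand) and Ifit1 (chr19:34640639-34640888, plus strand) are classical members of the response. Trim25 (chr11:88999153-88999402, plus strand) was the one member whose groups did not overlap. Capitals mark matches of GAAANNGAAA on either strand, which read TTTCNNTTTC where the match is on the other strand. Isg15 had 3 overlapping matches, Ifit3 and Ifit1 had 2 each, Rsad2 had 1, and Cmpk2 and Trim25 had none in these bases.
Rsad2: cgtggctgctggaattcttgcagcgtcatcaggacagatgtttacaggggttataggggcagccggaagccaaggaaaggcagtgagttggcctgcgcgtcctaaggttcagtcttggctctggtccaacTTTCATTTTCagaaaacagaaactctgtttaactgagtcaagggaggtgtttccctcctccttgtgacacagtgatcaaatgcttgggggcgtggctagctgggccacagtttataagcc
Cmpk2: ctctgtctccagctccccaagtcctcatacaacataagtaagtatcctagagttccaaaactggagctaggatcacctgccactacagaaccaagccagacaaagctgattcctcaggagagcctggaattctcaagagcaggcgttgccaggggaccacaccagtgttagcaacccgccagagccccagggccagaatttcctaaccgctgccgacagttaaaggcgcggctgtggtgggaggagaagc
Isg15: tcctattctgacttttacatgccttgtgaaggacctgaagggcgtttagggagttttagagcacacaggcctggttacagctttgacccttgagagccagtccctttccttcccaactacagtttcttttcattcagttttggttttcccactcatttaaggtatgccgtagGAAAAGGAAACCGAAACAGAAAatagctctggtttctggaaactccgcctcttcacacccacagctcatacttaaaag
Ifit3: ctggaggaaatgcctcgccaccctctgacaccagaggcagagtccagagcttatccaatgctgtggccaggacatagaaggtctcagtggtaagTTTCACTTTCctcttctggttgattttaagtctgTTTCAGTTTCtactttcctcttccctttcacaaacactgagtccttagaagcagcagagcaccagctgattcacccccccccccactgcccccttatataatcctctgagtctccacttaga
Ifit1: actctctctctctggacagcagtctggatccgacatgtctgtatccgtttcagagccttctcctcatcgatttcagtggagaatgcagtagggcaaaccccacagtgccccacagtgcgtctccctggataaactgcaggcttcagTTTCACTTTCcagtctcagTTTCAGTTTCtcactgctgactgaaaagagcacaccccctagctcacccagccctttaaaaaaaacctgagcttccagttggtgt
Trim25: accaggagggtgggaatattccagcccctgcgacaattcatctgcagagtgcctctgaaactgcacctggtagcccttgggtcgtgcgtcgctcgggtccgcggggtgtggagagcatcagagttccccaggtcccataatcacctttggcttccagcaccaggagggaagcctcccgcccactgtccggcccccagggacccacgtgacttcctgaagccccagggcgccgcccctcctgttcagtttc

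Library totals ran from 29557477 to 33685670 counts, and a count of 3 corresponded to 0.0891 to 0.101 CPM (counts scaled to library size). Control replicates 1 and 2 held the same count in every one of the 46983 rows. With a difference below sampling noise, the pair was counted as 1 sample, here control replicate 1, which left 3 knockout and 2 distinct control libraries. The deletion was visible in every library, with 74 to 89 Mtdh counts in the knockout libraries against 1529 and 1612 in the control libraries. The labels call the libraries biological replicates. CPM values below were scaled by TMM factors (trimmed mean of M values), and errors are SDs over the distinct libraries.

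The members differed widely in level. Scaled for exon length as TPM (a length-scaled level), the mean over the 5 distinct libraries ran from 0.238 for Oas3 to 282 for Bst2. Bst2, or tetherin, which holds budding virus particles at the cell surface, was followed by Ifi27 at 114 TPM. Trim25 (36.4 TPM) and Stat2 (34.2 TPM) came next, and after them Ifi35, Irf7 and Ifit3 lay close together at 25.4, 25.2 and 24.0 TPM, with overlapping libraries. The levels of Isg15 (19.4 TPM), Irf1 (17.3 TPM), Irf9 (13.2 TPM), Oasl1 (11.6 TPM) and Ifih1 (11.3 TPM) completed the highest 12. At the lower end, Oas1a (1.33 TPM), Ifi44 (0.778 TPM) and Oas3 were each represented by at most 104 counts per library.

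**Figure D1:**
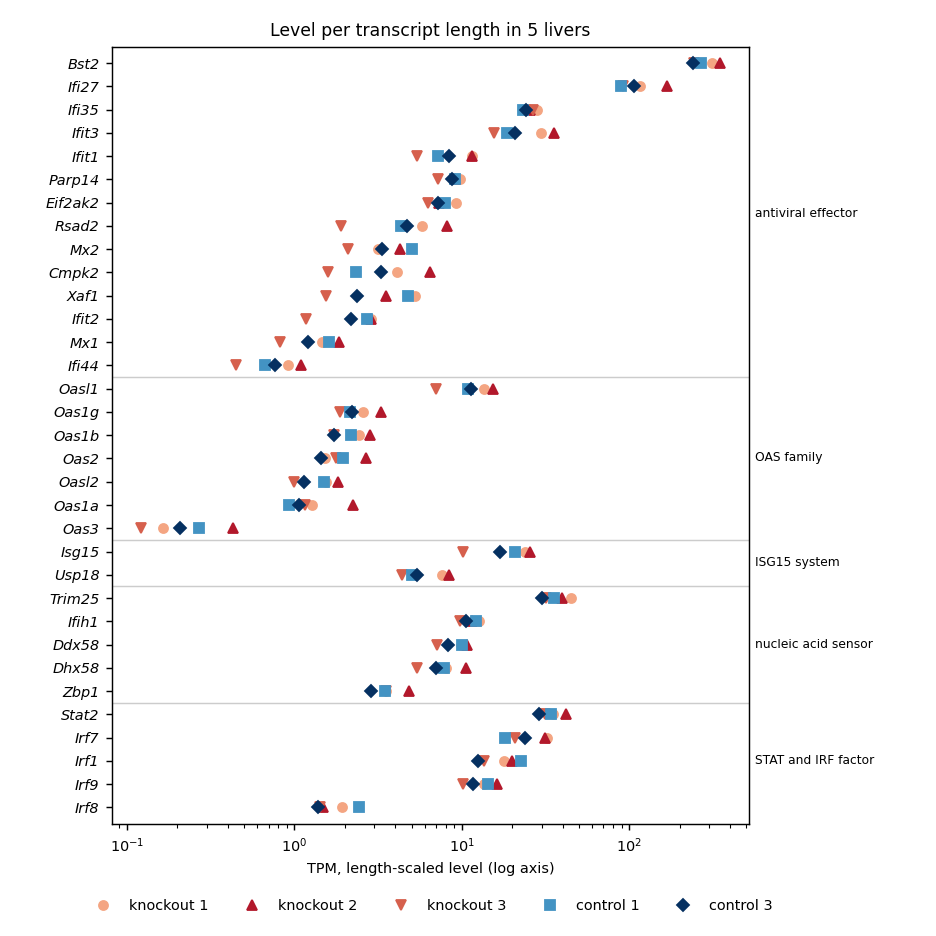
Level of each of the 33 members in TPM on a log axis, with 1 symbol per distinct library and genes grouped by role. Bst2 and Ifi27 stand highest, at means of 282 and 114 TPM, and Oas3 lowest at 0.238 TPM, while the 5 libraries of a gene lie close together beside the range between genes.

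No member passed the test between the groups. By edgeR's quasi-likelihood test 0 of 33 members passed the threshold in either direction, where 0.00608% of all genes tested did (Mtdh alone), and the adjusted p of every member was 1.00. At an unadjusted p under 0.05 the count was also 0 of 33, against 3.43% of all genes. DESeq2 called 0 members and 0.116% of all genes, and limma-voom called 0 members and 0.00608% of all genes. The fitted log2 fold changes of knockout over control ran from -0.44 for Mx2 to 0.57 for Oas1a, with 21 members above 0 and 12 below. Their median was 0.11, and the median over all genes tested was 0.01, with 52.1% of genes above 0.

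The data set limits on the size of a change for most members. For 26 of the 33, the 95% interval around the log2 fold change stayed within 1 of 0, so a 2-fold change in either direction was outside it; the share was 74.8% over all genes tested. The narrowest limits were those of the RNA sensor Ifih1, whose knockout over control ratio was 0.960 with an interval of 0.807 to 1.14. The 7 members whose interval reached 2-fold were Ifit3, Rsad2, Mx2, Cmpk2, Xaf1, Oas1a and Oas3. Of these, Cmpk2 had the widest upper limit, with a ratio of 1.33 and an interval of 0.566 to 3.10.

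**Figure D2:**
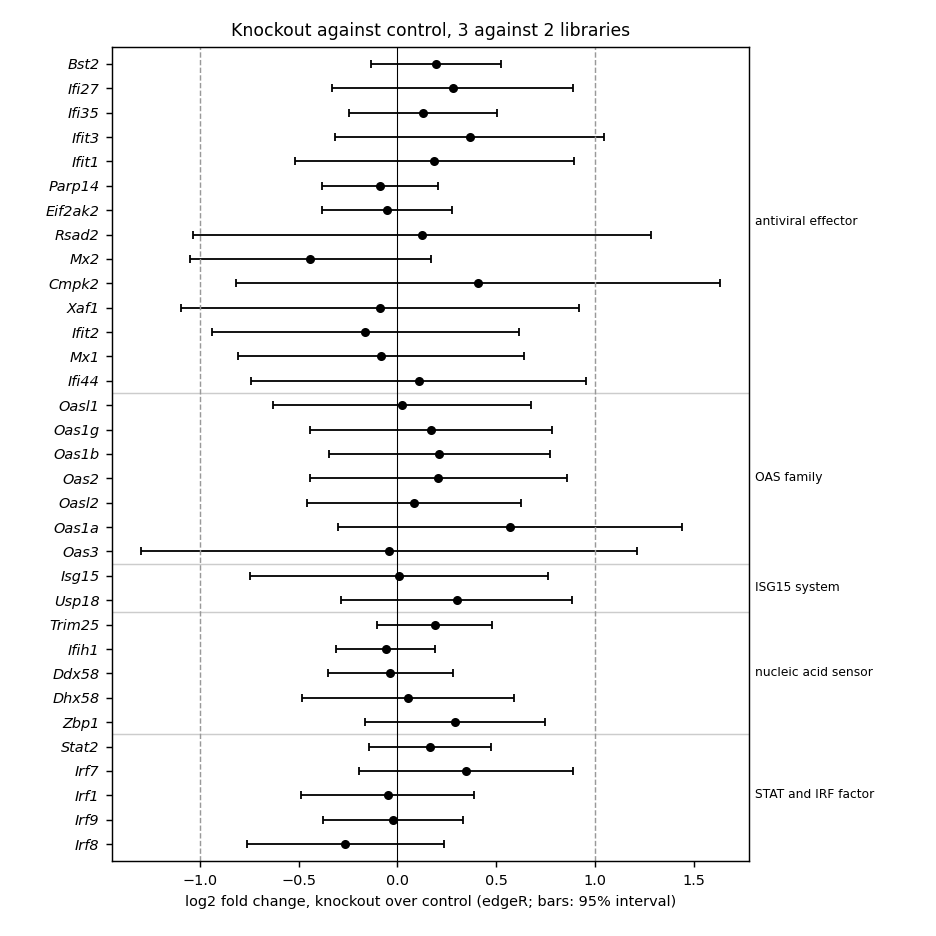
Fitted log2 fold change of each member, knockout over control, with its 95% interval from edgeR (3 against 2 distinct libraries); dashed lines mark 2-fold. Every interval includes 0, and those of Ifit3, Rsad2, Mx2, Cmpk2, Xaf1, Oas1a and Oas3 cross a dashed line.

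The groups overlapped in 32 of the 33 members. The exception was Trim25, the ubiquitin ligase that acts with the RNA sensor RIG-I, with all knockout libraries above both controls. Over all genes tested, 16.9% had groups that did not overlap, 8.16% with the knockout higher. Trim25 had 116, 107 and 99.4 CPM in the knockouts, against 91.7 and 96.6 CPM in the controls. The means were 107 ± 8.19 CPM (SD, n = 3) and 94.2 ± 3.46 CPM (SD, n = 2), a log2 fold change of 0.19 (SE 0.12) with an edgeR adjusted p of 1.00. In 17 members, both control values lay inside the range of the knockout values, which was so in 30.9% of all genes.

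The knockout livers differed among themselves in the same order for most members. Knockout replicate 2 had the highest CPM of the 5 libraries in 24 of 33 members, where it was the highest in 22.0% of all genes. Knockout replicate 3 had the lowest in 18 of 33, against 22.4% of all genes, and control replicate 1 had the lowest in 11, against 21.2%. In 22 members the knockout libraries were ordered replicate 2, 1, 3 from high to low, where 21.5% of all genes were. These counts describe 5 livers, and no test was made on them, since each order rests on 1 library per position.

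**Figure D3:**
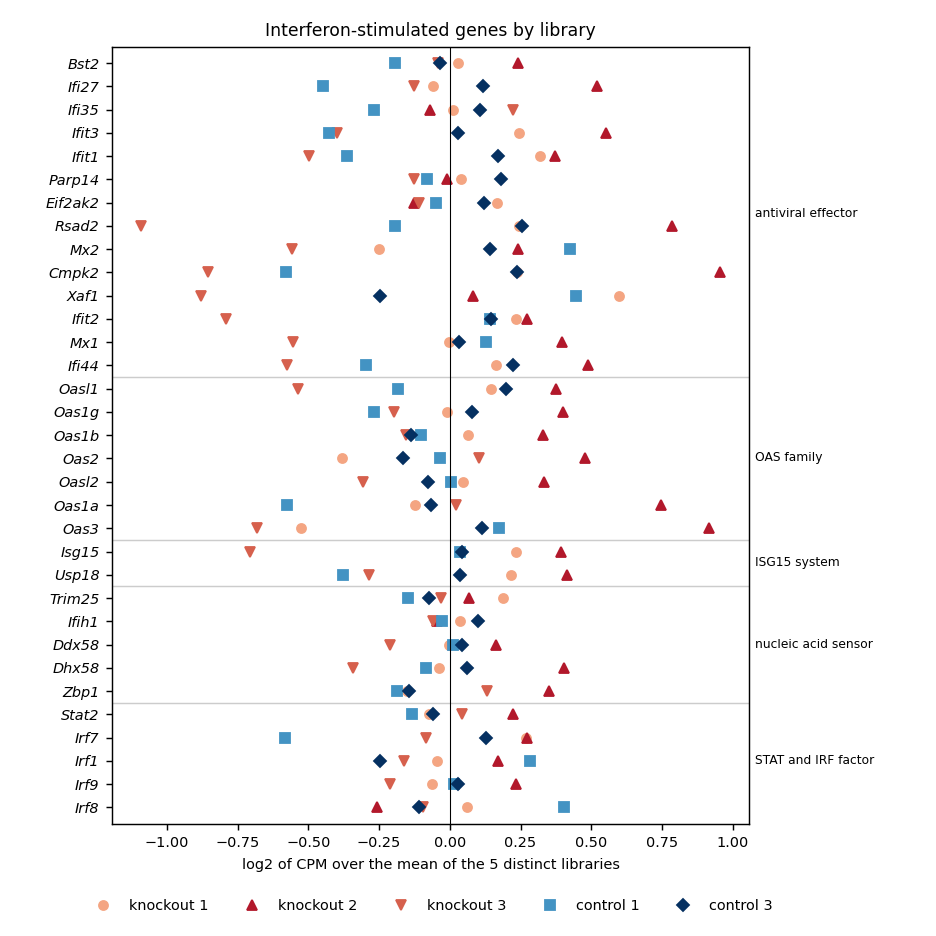
Each member's log2 CPM relative to its mean over the 5 distinct libraries, by role. Knockout replicate 2 (upward triangles) is the highest library in 24 of 33 members and knockout replicate 3 (downward triangles) the lowest in 18, while control replicate 1 is the lowest in 11 and the highest in 3.

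The members with the widest spread over the libraries, Rsad2 and Cmpk2, were antiviral effectors. Rsad2, or viperin, which makes a chain-terminating nucleotide that stops viral RNA synthesis, had 11.3, 16.4 and 4.47 CPM in the knockouts, against 8.32 and 11.3 CPM in the controls. Both controls lay between the lowest and the highest knockout library. The group means were 10.7 ± 5.99 CPM (SD, n = 3) and 9.83 ± 2.14 CPM (SD, n = 2), a log2 fold change of 0.13 (SE 0.48). The ratio of knockout replicate 2 to replicate 3 was 3.67, with a 95% interval of 3.05 to 4.45 that covers counting error only, as do all such intervals below.

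Cmpk2, a mitochondrial nucleotide kinase, lies 12752 bases from Rsad2 on chromosome 12. It had 5.86, 9.63 and 2.75 CPM in the knockouts, against 3.33 and 5.86 CPM in the controls, with the same libraries at the top and the bottom as for Rsad2. Its ratio between knockout replicates 2 and 3 was 3.50 (2.76 to 4.48), and its log2 fold change between the groups was 0.41 (SE 0.51). Xaf1, a partner of the apoptosis inhibitor XIAP, departed from this order. It had 11.1, 7.72 and 3.97 CPM in the knockouts, against 9.95 and 6.17 CPM in the controls, so that knockout replicate 1 was the highest.

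The IFIT genes lie together on chromosome 19 (34550694 to 34650009 on GRCm38), and their proteins bind foreign RNA and block its translation. Ifit3 had 23.2, 28.7 and 14.8 CPM in the knockouts, against 14.6 and 20.0 CPM in the controls, a log2 fold change of 0.37 (SE 0.29). Knockout replicate 3 and control replicate 1 were both low. Leaving out knockout replicate 2 or control replicate 1 lowered the log2 fold change to 0.14 and 0.15, and leaving out replicate 3 of either group raised it to 0.59 (knockout) and 0.61 (control). Of the distinct 50-base stretches of Ifit3 transcripts, 51.2% also occur in transcripts of other genes, all from Ifit3b, so its counts may mix both genes. Ifit2 had 5.08, 5.22 and 2.50 CPM in the knockouts, against 4.77 and 4.78 CPM in the controls. Here the low value of knockout replicate 3 stood alone below the other 4 libraries, and the log2 fold change was -0.16 (SE 0.32). Ifit1 had a knockout 2 to knockout 3 ratio of 1.82 (1.56 to 2.13).

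The Mx genes encode dynamin-like GTPases that trap viral components. The C57BL/6 strain is known to carry defective Mx1 and Mx2 alleles. Mx2 had the lowest log2 fold change of the set, -0.44 (SE 0.25), with 5.11, 7.18 and 4.12 CPM in the knockouts, against 8.16 and 6.71 CPM in the controls. The groups overlapped through knockout replicate 2, and its unadjusted edgeR p, the smallest of the 33, was 0.129. Leaving out knockout replicate 2 moved its log2 fold change to -0.69, leaving out knockout replicate 3 to -0.27, and leaving out control replicate 1 to -0.30. Mx1 was low, at 1.62 to 3.14 CPM over the 5 libraries.

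Bst2 and Ifi27 were the most abundant effectors. Bst2 had 107, 123 and 101 CPM in the knockouts, against 91.2 and 102 CPM in the controls, means of 110 ± 11.5 CPM (SD, n = 3) and 96.5 ± 7.55 CPM (SD, n = 2). Its knockout range began just below the higher control. Ifi27, a small membrane protein induced by interferon, had 76.4, 114 and 72.9 CPM in the knockouts, against 58.4 and 86.3 CPM in the controls, again with knockout replicate 2 on top. Ifi35 was one of 3 members in which knockout replicate 2 lay below replicate 3, with 21.6, 20.5 and 25.0 CPM in the knockouts, against 17.8 and 23.1 CPM in the controls. A gene on the opposite strand overlaps 16.8% of the exon bases of Ifi35, and without a stated strand setting their reads cannot be told apart. Eif2ak2, or PKR, the RNA-activated kinase that stops translation, and Parp14, an ADP-ribosyltransferase, had highest to lowest ratios of 1.22 and 1.24 over the 5 libraries, and Ifi44 had one of 2.09.

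The OAS enzymes make oligoadenylates that switch on RNase L, which degrades RNA, and knockout replicate 2 was the highest library for each of the 7 family members. Oas1a had the highest log2 fold change of the set, 0.57 (SE 0.36), from 1.07, 1.96 and 1.19 CPM in the knockouts, against 0.785 and 1.12 CPM in the controls. Those values stand for 25 to 65 counts per library, and the groups overlapped through knockout replicate 1. Without knockout replicate 2 the log2 fold change was 0.25, without control replicate 1 it was 0.33, and without control replicate 3 it was 0.84. Of the 50-base stretches of Oas1a, 57.6% also occur in Oas1g or Oas1b, and 45.7% of those of Oas1g occur in Oas1a or Oas1b, so the split of reads between them is uncertain. Oas3 had 0.521, 1.42 and 0.469 CPM in the knockouts, against 0.848 and 0.813 CPM in the controls, from 15 to 47 counts. Its controls agreed closely while its knockout libraries spread around them, and the log2 fold change was -0.04 (SE 0.52). Oasl1, an OAS-like protein known to restrain Irf7 translation, had 15.9, 18.6 and 9.91 CPM in the knockouts, against 12.7 and 16.5 CPM in the controls, a log2 fold change of 0.02 (SE 0.27). The remaining members Oas1b, which is truncated in C57BL/6, Oas1g, Oas2 and Oasl2 ran from 1.87 to 5.55 CPM, with log2 fold changes of 0.08 to 0.21.

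ISG15 is a ubiquitin-like protein that is joined to other proteins, and USP18 removes it and also dampens the interferon receptor. Isg15 had 8.04, 8.96 and 4.19 CPM in the knockouts, against 7.00 and 7.05 CPM in the controls. The group means were nearly equal, 7.06 ± 2.53 CPM (SD, n = 3) and 7.02 ± 0.0314 CPM (SD, n = 2), while knockout replicates 2 and 3 differed 2.14-fold (1.74 to 2.64). Usp18 had 9.47, 10.9 and 6.69 CPM in the knockouts, against 6.28 and 8.37 CPM in the controls. Its log2 fold change was 0.30 (SE 0.24), and the low libraries were knockout replicate 3 and control replicate 1.

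The 5 genes grouped as nucleic acid sensors include Trim25, and the 14 effectors include Eif2ak2. Over the 5 libraries, the highest to lowest ratio of the sensors ran from 1.12 to 1.68 with a median of 1.29. That of the effectors ran from 1.22 to 3.67 with a median of 1.96, and the median over all genes tested was 1.43. Ifih1, or MDA5, which detects long double-stranded RNA, had 46.3, 43.7 and 43.2 CPM in the knockouts, against 44.2 and 48.3 CPM in the controls, the smallest spread of the set with a highest to lowest ratio of 1.12. Ddx58, or RIG-I, which detects RNA with free triphosphate ends, ran from 27.2 to 35.2 CPM over the 5 libraries with a log2 fold change of -0.04 (SE 0.13). Dhx58, or LGP2, a regulator of both sensors, was the widest of this group, with a knockout 2 to knockout 3 ratio of 1.68 (1.45 to 1.94). Zbp1, a sensor of Z-form nucleic acids linked to necroptosis, had a log2 fold change of 0.29 (SE 0.19).

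Among the transcription factors, Stat2, the partner of IRF9, had 69.4, 85.2 and 75.3 CPM in the knockouts, against 66.7 and 70.2 CPM in the controls, a log2 fold change of 0.16 (SE 0.13). Knockout replicate 2 was again the highest, and the groups overlapped through replicate 1. Irf9 had 32.9, 40.3 and 29.6 CPM in the knockouts, against 34.6 and 35.0 CPM in the controls. Irf7, which amplifies interferon production and is itself an interferon target, had 43.8, 43.9 and 34.3 CPM in the knockouts, against 24.3 and 39.7 CPM in the controls. The low value here was control replicate 1. The log2 fold change was 0.35 (SE 0.23), and it was 0.03 without control replicate 1 and 0.75 without control replicate 3. Irf1 and Irf8, factors that also respond to interferon gamma, were highest in control replicate 1. Irf1 had 31.8, 36.9 and 29.3 CPM in the knockouts, against 39.9 and 27.7 CPM in the controls, and Irf8, a factor of myeloid cells, had 6.06, 4.86 and 5.44 CPM against 7.69 and 5.39 CPM. Irf8 had a log2 fold change of -0.26 (SE 0.21).

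Between knockout replicates 2 and 3, 30 of 33 members were higher in replicate 2, where 50.3% of all genes were. The median ratio was 1.56, against 1.00 over all genes, and 18 members had a ratio of at least 1.5, against 11.5% of all genes. The ratio reached 2 in 6 members, Rsad2, Cmpk2, Oas3, Isg15, Ifi44 and Ifit2. For 27 members the counting interval lay above 1. Shares of all genes were not computed for this count or for a ratio of 2, so neither can be called particular to the members. By role, the median ratio was 1.88 for the effectors and for the ISG15 system, 1.56 for the OAS family, 1.16 for the sensors and 1.26 for the STAT and IRF factors. Split by the response element, the median ratio was 1.58 over the 12 members with a match (0.990 to 3.67) and 1.46 over the 12 with a window and no match (0.817 to 3.50).

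**Figure D4:**
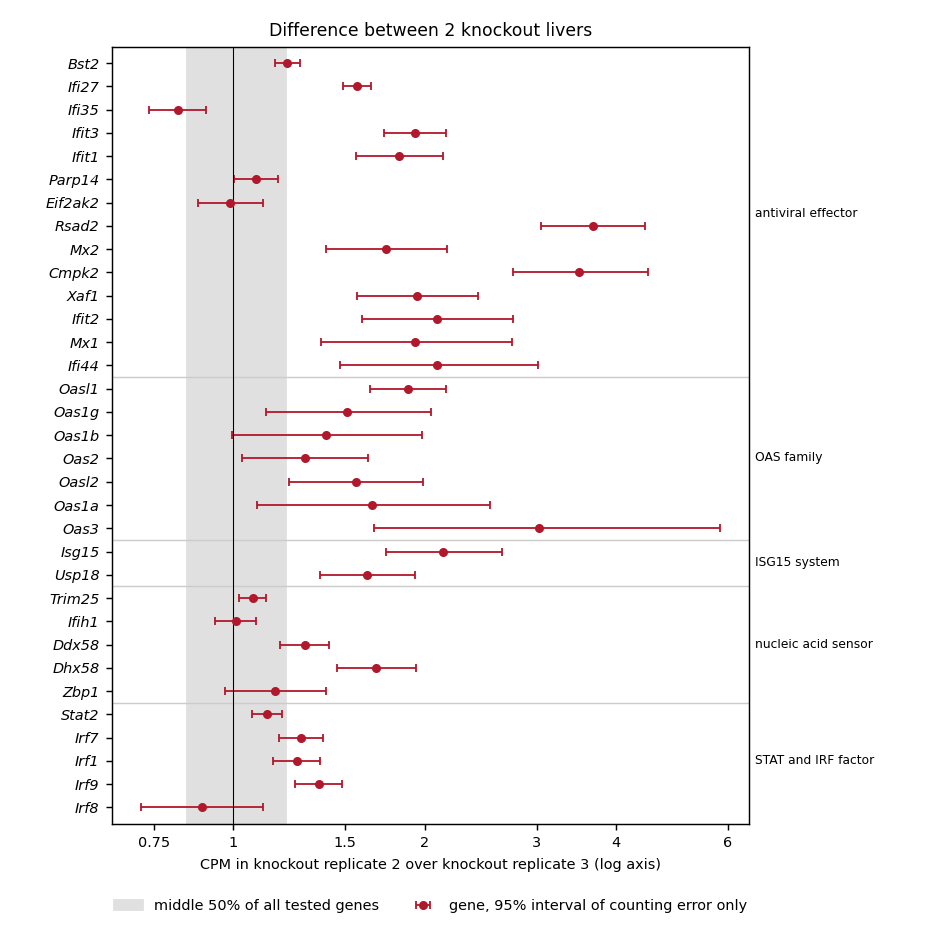
Ratio of CPM in knockout replicate 2 to replicate 3 for each member on a log axis, with 95% intervals of counting error only; the grey band spans the middle 50% of all genes tested. Rsad2 (3.67) and Cmpk2 (3.50) lie farthest to the right, and Ifi35, Irf8 and Eif2ak2 lie below 1.

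The sign of the members' median log2 fold change depended on which knockout library was left out. Without knockout replicate 2 the median log2 fold change of the members was -0.08, with 12 of 33 above 0, and without knockout replicate 3 it was 0.23, with 28 above 0. Leaving out knockout replicate 1 gave 0.09. Leaving out a control gave 0.20 for replicate 3 and 0.00092 for replicate 1, the latter with 17 above 0; each of these fits had 1 control library, whose spread was taken from the knockouts. In each of these 5 fits 0 members passed by edgeR, and 0 passed by DESeq2 with the same libraries left out. At an unadjusted edgeR p under 0.05 there was at most 1 member in any of them.

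**Figure D5:**
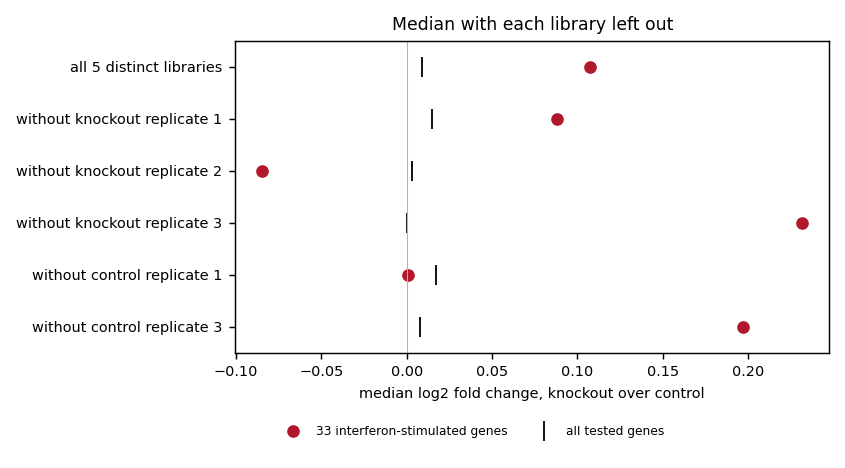
Median log2 fold change, knockout over control, of the 33 members (points) and of all genes tested (bars), with all 5 distinct libraries and with each left out in turn. The members' median moves from -0.08 without knockout replicate 2 to 0.23 without knockout replicate 3, while that of all genes stays near 0.

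Transcripts of the interferons themselves were at or near 0. Of 21 rows of type I, II and III interferon genes, 19 had 0 counts in every distinct library, Ifnb1 and the interferon alpha genes among them, and the highest count of any was 2. By counting error alone, a count of 0 allows up to 0.101 CPM in the smallest library. This limit does not cover multi-mapped reads, whose handling is not stated. Of 16 genes of the receptors and JAK-STAT signalling, 14 were kept, 0 passed by edgeR or DESeq2, and their median log2 fold change was -0.05. Groups did not overlap in 5 of the 14, all lower in the knockouts, where 8.72% of all genes were. Ifnar1 had 37.3, 42.2 and 40.3 CPM in the knockouts, against 46.0 and 44.1 CPM in the controls, with no overlap and a log2 fold change of -0.17 (SE 0.11). Ifnar2 overlapped, at -0.21 (SE 0.21). Stat3 (-0.40, SE 0.17) and Jak1 (-0.20, SE 0.12) did not overlap and did not pass the test.

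Of 22 genes that lead to interferon production, 21 were kept, 0 passed by edgeR or DESeq2, and the median log2 fold change was -0.05. Irf5, a factor of this pathway in immune cells, had 9.28, 12.2 and 21.2 CPM in the knockouts, against 26.8 and 24.7 CPM in the controls, a log2 fold change of -0.86 (SE 0.32) with an edgeR adjusted p of 1.00. All knockout libraries were below the controls, but they spread more than 2-fold among themselves. Mavs, the adaptor of RIG-I and MDA5, had 0.16 (SE 0.11). The 56 kept genes of a further list of interferon-stimulated genes had a median of 0.06, with 0 passing by either tool, and 46 of them were higher in knockout replicate 2 than in replicate 3. Psmb9, an immunoproteasome subunit, had 0.28 (SE 0.14), Ifi203 had -0.31 (SE 0.15) and Gvin1 had -0.81 (SE 0.44).

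The interferon-inducible IRG and GBP GTPases, which attack the membranes of intracellular pathogens, had 18 kept genes with a median log2 fold change of 0.01. Igtp had 57.6, 57.4 and 55.8 CPM in the knockouts, against 38.1 and 31.1 CPM in the controls, and the groups did not overlap. Its log2 fold change was 0.72 (SE 0.13), and it did not pass by edgeR (adjusted p of 1.00) but passed by DESeq2 (adjusted p of 0.00711). Gbp3 had 0.38 (SE 0.22) and Ifi47 -0.31 (SE 0.22). The span of Igtp (chr11:58199556-58207591) overlaps that of Irgm2 (chr11:58199618-58222779), which had 0.22 (SE 0.17). Shared exon bases were not computed for this pair, so the split of reads between them is uncertain.

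Cell type markers were summed per library beside these values. In bulk liver, fewer cells of a type and less RNA per cell cannot be told apart. The 12 Kupffer cell and macrophage markers summed to 355 to 428 CPM in the knockouts, against 380 and 484 CPM in the controls, with knockout replicate 2 the lowest. The 10 sinusoidal endothelial markers summed to 337, 256 and 241 CPM in the knockouts, against 309 and 384 CPM in the controls, and the 8 stellate cell markers to 294, 244 and 203 CPM against 273 and 287 CPM. Knockout replicate 3 was the lowest library in the endothelial and stellate cell sums, as it was in 18 of the 33 members, and knockout replicate 2 was the second lowest in both. The 7 markers of plasmacytoid dendritic cells, the main interferon producers of the blood, summed to 2.05, 1.90 and 0.812 CPM against 1.10 and 0.982 CPM. These sums are near the floor: 1 of the 7 passed the low-count filter, and none had more than 34 counts in any library. Klk1 had no more than 3 counts in any library. The 10 T and NK cell markers summed to 3.52 to 4.36 CPM and the 7 neutrophil markers to 3.09 to 5.62 CPM over the 5 libraries, with Ngp and Mpo at no more than 3 counts. The 6 B and plasma cell markers summed to 12.9, 22.5 and 16.2 CPM in the knockouts, against 19.2 and 11.2 CPM in the controls. All 10 endothelial, all 8 stellate cell and 11 of the 12 Kupffer cell and macrophage estimates were below 0. Over all genes tested, 52.1% were above 0. By edgeR or DESeq2, 0 of these markers passed. At an unadjusted edgeR p under 0.05 there were 2 endothelial, 1 stellate cell and 0 Kupffer cell markers, against 3.43% of all genes. Groups did not overlap in 4 endothelial, 1 stellate cell and 0 Kupffer cell markers. Those markers were lower in the knockouts, as were 8.72% of all genes. The 8 conventional dendritic cell markers summed to 6.03 to 10.8 CPM and the 6 cholangiocyte markers to 37.0 to 58.5 CPM over the 5 libraries. The 10 hepatocyte markers, among them Alb and Apob, summed to 81165 to 112930 CPM. In the hepatocyte, conventional dendritic, and T and NK cell sums, control replicate 1 was the highest library and control replicate 3 the lowest. In the cholangiocyte sum the same controls were at the ends in the reverse order, so the knockouts lay between the controls in all of these. The part of these cell types in the members' values was not tested.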

How the data were processed

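Gene-level read counts, unnormalised whole numbers, were deposited by the authors in 1 table for 6 liver RNA libraries (TruSeq RNA kit and HiSeq2500 per the labels' protocols). Per the submitters' processing notes, the tools were featureCounts 1.4.6-p4, Subread 1.4.6-p4, Trimmomatic 0.33 and FastQC, and the build was mm10 (GRCm38). Per the file headers, each row gives exon coordinates, strand and summed exon length. Neither the strand setting nor the handling of multi-mapped reads is stated in these sources.

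Symbols came from GENCODE vM21, which held 46488 of the identifiers. Genes were kept by filterByExpr, scaled by TMM and tested two-sided by the quasi-likelihood method of edgeR on 3 knockout and 2 distinct control libraries, with Benjamini-Hochberg adjustment over all 16441 kept genes and a threshold of 0.05. TPM was computed from counts and exon length. The members and lists were chosen with earlier results of these data known. Per-library values were given for the 12 members highest in TPM, the 6 with the largest highest to lowest ratio, the 3 with the highest and the 3 with the lowest log2 fold change, any with an unadjusted p under 0.05, and 3 genes of each pathway list by p with Ifnar1, Ifnar2 and Ifnb1; some genes that this rule names are not reported here. Other members were named for their role. The 6 members shown by sequence, and other genes outside the rule, were chosen after their values were seen. Alternatives were DESeq2, limma-voom, other scalings, no filter, a robust prior, all 6 columns, a replicate block and each library left out. DESeq2 with libraries left out and other scalings of the library order were added after the data were seen. Python 3.11.15, DESeq2 1.42.0, edgeR 4.0.16, limma 3.58.1 and R 4.3.3 were used.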

Additional observations from a re-analysis of the deposited data

How the results depend on the processing

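No alternative called a member. With 2 distinct controls, the median half-width of the members' 95% interval was 0.59 on the log2 scale. The count of genes called, 1 in the reported fit, was 3 without a low-count filter, 19 by DESeq2 and 0 with the replicate block, where Mtdh had a log2 fold change of -4.28 with an adjusted p of 0.0517. It ran from 1 to 6 with each library left out by edgeR, the 6 being without control replicate 3, and from 6 to 146 by DESeq2 (6 without knockout replicate 1, 48 without knockout replicate 2, 72 without knockout replicate 3, 27 without control replicate 1 and 146 without control replicate 3). The members' median was -0.09 with the replicate block, 0.06 by limma-voom and 0.18 on all 6 columns as deposited. In the block fit, knockout replicate 2 had no distinct control library of the same number, so it did not enter the difference between groups. That fit therefore comes close to leaving out knockout replicate 2, where the median was -0.08, with 12 members above 0 in both. Replicate numbers were shared by 2 pairs of distinct libraries, whose deviations correlated at 0.0605 and 0.155. With 2 distinct controls, their deviations mirror each other, so this check cannot decide whether the numbers pair the samples. By chi-square per degree of freedom, larger where counts differ more, knockout replicate 3 was nearer to control replicate 3 (49.38) than to control replicate 1 (156.5). Knockout replicate 1 was nearer to control replicate 1 (84.45) than to control replicate 3 (135.2). So was knockout replicate 2 (91.08 against 122.7). Of all pairs of distinct libraries, control replicates 1 and 3 differed most (226.9), and knockout replicates 1 and 2 differed least (44.53). The titles do not state a pairing, and the reported fit has none. Groups did not overlap in 1 of 33 members as reported, with 16.9% of all genes. With library totals alone the count was 3, and the share of all genes was not computed. Without knockout replicate 1, 2 or 3 the counts were 7, 6 and 11, with 26.9%, 32.7% and 31.5% of all genes. They were 4 without control replicate 1 and 14 without control replicate 3, with 47.1% and 50.5% of all genes. Of 280 values of 20 named members under the alternatives, 29 changed sign. Isg15 was at -0.013 with upper-quartile scaling, and by limma-voom Isg15 was at -0.065, Oasl1 at -0.0093 and Rsad2 at -0.042. With the replicate block, and so in effect without knockout replicate 2, Cmpk2 was at -0.13, Isg15 at -0.27, Oasl1 at -0.20 and Rsad2 at -0.43. With each library left out, the log2 fold change ran from -0.094 to 0.87 for Cmpk2, -0.051 to 0.33 for Ifi35, -0.13 to 0.0074 for Ifih1, -0.34 to 0.11 for Ifit2, -0.29 to 0.24 for Irf1, -0.49 to 0.012 for Irf8, -0.16 to 0.072 for Irf9, -0.20 to 0.27 for Isg15, -0.74 to 0.23 for Oas3, -0.18 to 0.24 for Oasl1, -0.32 to 0.49 for Rsad2 and -0.46 to 0.29 for Xaf1. Without a change of sign, it ran from 0.11 to 0.28 for Bst2, 0.02 to 0.59 for Ifi27, 0.14 to 0.61 for Ifit3, 0.03 to 0.75 for Irf7, -0.69 to -0.27 for Mx2, 0.25 to 0.84 for Oas1a, 0.08 to 0.23 for Stat2 and 0.13 to 0.24 for Trim25. The cause was not tested. Knockout replicate 2 was the highest library in 23 or 24 members and knockout replicate 3 the lowest in 18 to 22 under the other scalings and without a filter.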

Other observations

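Outside the 33, knockout replicate 2 was above replicate 3 in 16 of the 18 IRG and GBP GTPases, with a median ratio of 1.395, and in 46 of 56 further interferon-stimulated genes, with a median of 1.29, where 50.3% of all genes were above. Knockout replicate 3 was the lowest library in 11 and 29 of them and the highest in 1 and 5. The genes named here were chosen after their values were seen. Gbp10, a guanylate-binding protein, had 13.0, 23.1 and 6.12 CPM in the knockouts, against 6.44 and 13.3 CPM in the controls, with a ratio of knockout replicates 2 to 3 of 3.78. Cxcl9, a chemokine that attracts T cells, had 11.9, 13.0 and 5.09 CPM in the knockouts, against 11.1 and 6.06 CPM in the controls. Ifi27l2b, a relative of Ifi27 also on chromosome 12, had 4.79, 7.36 and 2.41 CPM against 3.92 and 3.35 CPM, and Tor3a had 5.37, 8.45 and 3.72 CPM against 4.43 and 5.96 CPM. Others went the other way: Gbp11 was highest in knockout replicate 3 with 38.2 CPM, against 25.9 CPM in replicate 2 and 27.8 and 22.2 CPM in the controls, and Psmb10, an immunoproteasome subunit, had 25.1, 25.9 and 32.0 CPM against 26.1 and 21.2 CPM. Ifitm3 and Psmb8 were also highest in knockout replicate 3. None of these 8 genes passed between the groups by edgeR or DESeq2.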
